A study of Mus musculus with 57 samples.

Results

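The genes of the proteasome were described across 56 single mouse T helper 2 (Th2) cells. Members were all rows whose symbol begins with Psma, Psmb, Psmc, Psmd, Psme, Psmf or Psmg followed by a number, and 47 of the 10565 genes of the table met this rule. By their established roles they were divided into 5 immunoproteasome genes (Psmb8, Psmb9, Psmb10, Psme1 and Psme2), 14 constitutive genes of the 20S core (Psma1 to Psma7 and Psmb1 to Psmb7) and 17 genes of the 19S regulatory particle (Psmc1 to Psmc6, Psmd1 to Psmd4, Psmd6 to Psmd8 and Psmd11 to Psmd14). A further 7 encode assembly factors (Psmd5, Psmd9, Psmd10 and Psmg1 to Psmg4) and 3 encode other activators or an inhibitor (Psme3, Psme4 and Psmf1). The last, Psmc3ip, matches by name only: it encodes a partner in meiotic recombination and is no proteasome subunit. It is counted among the 47 and described apart from the classes.

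The cells came from a wild-type C57BL/6 background. CD4+ T cells were taken from spleens at 8 weeks of age, activated through CD3 and CD28 and driven to the Th2 fate with IL-4 and an antibody that neutralises interferon gamma. IL-2 was added after 2 days, and after 5 days of culture the cells were stimulated again through CD3 and CD28 before they were captured with the Fluidigm C1, a chip that traps single cells and amplifies their cDNA. The 56 cells are all of 1 group, and no label names separate mice or cultures, so they count as 1 sample and no test between cells was made. Cells are numbered within 5 sets, T1 (8 cells) and T2 to T5 (12 cells each), whose meaning the labels do not give. A library of pooled cells was not analysed here.

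The proteasome is the main protease of the cytosol and nucleus and degrades proteins that carry ubiquitin chains. Its 20S core is a barrel of stacked rings. The outer alpha rings guard the entrance and the inner beta rings hold the catalytic subunits Psmb5, Psmb6 and Psmb7. The 19S particle caps the barrel, binds ubiquitin, removes it and unfolds the substrate with a ring of ATPases (the Psmc genes). Cells exposed to interferon, and many cells of the immune system at rest, exchange the catalytic subunits for the immunoproteasome forms: Psmb8 takes the place of Psmb5, Psmb9 that of Psmb6 and Psmb10 that of Psmb7. Psme1 and Psme2 form PA28, a cap that interferon induces and that opens the barrel without ubiquitin or ATP. Peptides made by these forms feed presentation on MHC class I.

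Levels are given in TPM (a share of all transcripts, corrected for transcript length and rounded to whole numbers by the authors), and a gene with 1 TPM or more in a cell is called detected there. Transcripts may be lost when a cell is captured and amplified, so zeros are written as listed at 0. The median cell had 4743.5 genes detected (2679 to 8396), and 55.4% of all values were 0. All 5 T cell markers and all 5 Th2 markers of the lists used were detected, but not all of them in every cell. Cd3d, Cd3e, Cd2, Gata3 and Ecm1 were detected in every cell, and Cd3g and Il4 in 54 cells each. Cd4 was detected in 37 cells, Il13 in 31 and Il5 in 14. Of the markers of other cell types, Cd8b1 was detected in 1 cell and Cpa3, a mast cell protease, in 5 cells. None of the 4 B cell and 4 myeloid markers searched for was among the genes analysed here. Cells T3_2 and T3_5 stood apart from the rest. T3_5 had the most genes detected of all cells, at 8396. In T3_2, with 3096 genes detected, 28 of the 47 proteasome genes were listed at 0, including 8 of the 14 core genes and 11 of the 17 genes of the 19S particle. Its 46 subunit and accessory genes (all but Psmc3ip) summed to 0.144% of TPM, against 1.11% to 3.05% in the other cells. Values without these 2 cells are given where they moved a result.

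Proteasome genes together took a median of 2.02% of all TPM in a cell, with quartiles of 1.76% and 2.25%. All 47 were detected in at least 32 cells. Detection in every cell was seen for 7 of the 47 (Psme1, Psma1, Psma3, Psma4, Psma5, Psma6 and Psmc4), beside 3.77% of all genes in the table, whatever their level. Against the genes nearest in mean TPM, the number of cells detected differed by a median of 0 over the 47 and of -1 in the core. The constitutive core was the most abundant class. The median over genes of the mean TPM was 344 for the immunoproteasome genes, 683 for the core, 348 for the 19S particle, 108 for the assembly factors and 64.7 for the other activators and inhibitor. Taken as median cells instead of means, the immunoproteasome stood at 197 TPM and the assembly factors at 30 TPM. The ranges of these classes overlapped. Mean levels ran from 78.1 to 673 TPM for the immunoproteasome, 170 to 1722 TPM for the core, 46 to 719 TPM for the 19S particle and 33.8 to 281 TPM for the assembly factors. Proteins of 1 complex are made in fixed proportions, but the transcripts were not level: means within the core differed by up to 10.1-fold and within the 19S particle by up to 15.6-fold. The 10.1-fold is that of Psma7 over Psmb5, and the level of Psmb5 is uncertain because of near-identical transcripts. The lowest core gene without such a copy was Psma3, at 263 TPM.

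**Figure D1:**
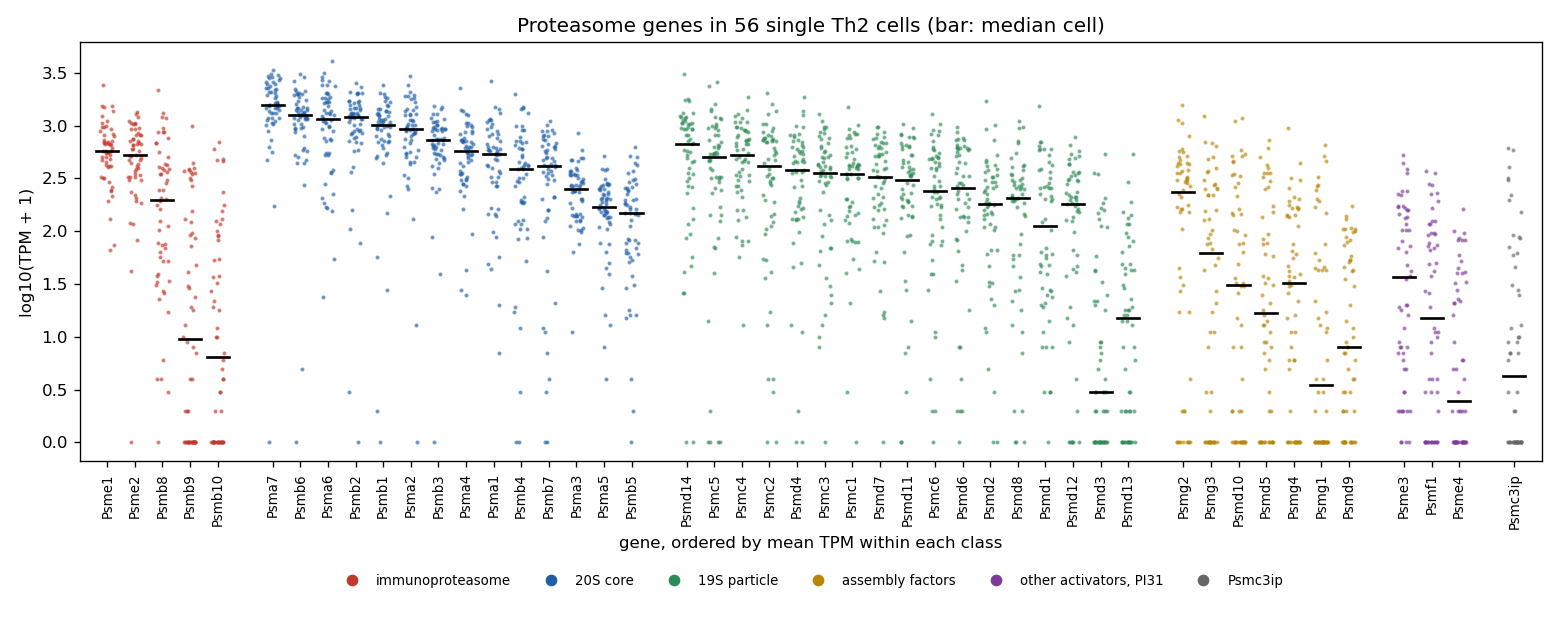
Level of each proteasome gene in each of 56 cells as log10(TPM + 1), by class and ordered by mean TPM within the class; points are cells with horizontal jitter and bars are the median cell. Core genes form a band with median cells of 148 to 1580 TPM, while Psmb9, Psmb10, Psmd3, Psmd9 and Psmg1 have median cells of 8.5 TPM or less and many cells at 0.

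In the core, Psma7, an alpha ring subunit, had the highest mean of all proteasome genes. It stood at 0 TPM in the lowest cell, 1580 in the median and 3359 in the highest (mean 1722), rank 76 of all genes by mean. The catalytic Psmb5 had the lowest mean of the core, with 0 TPM in the lowest cell, 148 in the median and 630 in the highest (mean 170). Psmb5 also has near-identical transcripts elsewhere in the annotation, with up to 98.9% identity, so reads may have been divided between copies and its level is uncertain. The same holds for 10 more members, Psma4, Psma5, Psmb3, Psmb6, Psmc1, Psmd2, Psmd11, Psmd14, Psme1 and Psme2. The other core genes had means between 180 TPM (Psma5) and 1295 TPM (Psmb6). They were Psma1 at 592, Psma2 at 1004, Psma3 at 263, Psma4 at 624, Psma6 at 1259, Psmb1 at 1014, Psmb2 at 1167, Psmb3 at 742, Psmb4 at 470 and Psmb7 at 430 TPM. The catalytic Psmb6 had 0, 1249.5 and 3059 TPM in the lowest, median and highest cell (55 cells) and Psmb7 had 0, 416 and 1113 TPM (54 cells). Every core gene was detected in 54 or more cells. In the cells other than T3_2 at most 1 core gene was listed at 0. T3_2 thus held most of the zeros of the core.

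In the 19S particle, Psmd14, the deubiquitinase that strips ubiquitin chains from substrates at the entrance, had the highest mean. It had 0 TPM in the lowest cell, 673 in the median and 3082 in the highest (mean 719, 54 cells). The lid subunits Psmd13 and Psmd3 had the lowest means: Psmd13 had 0, 14 and 533 TPM in the lowest, median and highest cell (mean 46, 43 cells). Psmd3 had 0, 2 and 536 TPM (mean 49.7, 37 cells). These 2 lid genes were far below the remaining 15 genes of the particle, of which Psmd12 was lowest at 212 TPM. The 6 ATPases of the base were closer to each other, with means of 333 TPM for Psmc6, 383 for Psmc1, 396 for Psmc3, 496 for Psmc2, 589 for Psmc4 and 595 for Psmc5. Among the other base subunits, Psmd1 averaged 224, Psmd2 253 and the ubiquitin receptor Psmd4 441 TPM. The remaining lid genes were Psmd8 at 248, Psmd6 at 325, Psmd11 at 348 and Psmd7 at 374 TPM. By class the base had a median of 396 TPM over 9 genes and the lid 286 TPM over 8 genes.

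Level moved with the length of the coding sequence. Over the 31 constitutive genes (core and 19S), mean TPM and coding length, which ran between 603 and 2859 bases, had a Spearman rho of -0.581. Within the core rho was -0.570 over 14 genes, and within the 19S particle it was -0.273 over 17 genes. TPM is already divided by length, and core genes are shorter (median 741 bases) than 19S genes (1254 bases). The part of length in the difference between these classes was not tested.

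The assembly factors, which guide subunits into place and leave the finished particle, were lower and detected in fewer cells. Psmg2, which pairs with Psmg1 to build the alpha ring, was highest with 0, 234.5 and 1572 TPM in the lowest, median and highest cell (mean 281, 47 cells). Its partner Psmg1 had 0, 2.5 and 653 TPM (mean 70.4, 32 cells). Psmg3 averaged 160 TPM in 40 cells and its partner Psmg4 90 TPM in 42 cells. In both pairs of partners the transcript of 1 gene thus had the higher mean, though each protein is known to work as a dimer with its partner. The means of partners differed by less than the SD over cells of the higher gene (311 TPM for Psmg2, 236 TPM for Psmg3). The median of Psmg4 was above that of Psmg3 in sets T1, T2 and T3 and below it in T4 and T5. Of the chaperones of the 19S base, Psmd10 averaged 152 TPM (40 cells), Psmd5 108 TPM (42 cells) and Psmd9 33.8 TPM (42 cells). The nuclear activator Psme3 (PA28 gamma) had 0, 35.5 and 522 TPM in the lowest, median and highest cell, with a mean of 90.4. Psmf1 (PI31) averaged 64.7 TPM and Psme4 (PA200) 21.1 TPM, the lowest of all. Psmc3ip averaged 61.9 TPM and was detected in 32 cells.

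Within the immunoproteasome the PA28 cap and the catalytic genes differed. Psme1 had 65, 575.5 and 2455 TPM in the lowest, median and highest cell (mean 673, detected in 56 cells). Psme2 had 0, 522 and 1345 TPM (mean 579, 55 cells). The means of both lay close to the median of the core class. The level of Psme1 lay above that of Psme2 in 36 of 56 cells, and its share of the pair was 55.7% in the median cell (18.4% to 100%). Among the catalytic genes, Psmb8 had 0, 197 and 2176 TPM (mean 344, 55 cells). Psmb9 had 0, 8.5 and 994 TPM (mean 106, 36 cells), and Psmb10 had 0, 5.5 and 707 TPM (mean 78.1, 36 cells). Psmb8 was present nearly throughout, whereas 20 cells each were listed at 0 for Psmb9 and for Psmb10. In the order Psme1, Psme2, Psmb8, Psmb9 and Psmb10, the means of neighbours differed by less than the SD over cells of the higher gene. These SDs were 426, 333, 424, 185 and 159 TPM.

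Each cell held at least 1 of the 3 catalytic immunoproteasome transcripts. All 3 were detected in 26 cells, 2 of them in 19 and only 1 in 11. Psmb9 and Psmb10 were together in 26 cells, where 23.1 would be given by their single frequencies. For their mean level, Psmb9 was detected in 9 fewer cells and Psmb10 in 4 fewer cells than the genes nearest in mean TPM.

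Each immunoproteasome form was then set against the constitutive subunit whose place it takes, as its share of the TPM of both in each cell. The immunoproteasome form was the larger in more cells than not for Psmb8 and in few cells for Psmb9 and Psmb10. Psmb8 made up 62.7% of Psmb8 and Psmb5 in the median cell, with quartiles of 28.2% and 83.4%. It exceeded Psmb5 in 31 of 56 cells (55.4%, exact Clopper-Pearson 95% interval 41.5% to 68.7%, which covers counting error only). Psmb5 and Psmb6 have near-identical copies in the annotation. How reads shared with copies were assigned is not stated, so the shares of Psmb8 and Psmb9 are uncertain, and Psmb5 reads assigned to a copy would make the share of Psmb8 too high. Psmb9 made up 1.33% of Psmb9 and Psmb6 in the median of the 55 cells with either transcript and exceeded Psmb6 in 1 cell (1.82%, interval 0.0460% to 9.72%). Psmb10 made up 3.37% of Psmb10 and Psmb7 in the median of 55 cells and exceeded Psmb7 in 6 cells (10.9%, interval 4.11% to 22.2%). Without set T2, where its median share was 0, that of Psmb10 was 9.07%. Psmb7 has a named pseudogene and overlaps the gene Nek6 on the opposite strand, so the share of Psmb10 is uncertain as well. The shares of Psmb9 and Psmb10 were 0 in 19 cells each. Summed over all cells, the immunoproteasome form took 66.9% of TPM for Psmb8, 7.56% for Psmb9 and 15.4% for Psmb10.

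For the sum of all 3 catalytic forms the immunoproteasome share was 19.3% in the median cell, between 0.668% and 75%, and it was above 50% in 4 cells. The highest of these was T3_2, where Psmb8 had 3 TPM, Psmb9 0 and Psmb10 9, against 0 for Psmb5, 4 for Psmb6 and 0 for Psmb7. Next came T1_5 at 65.5%, T3_12 at 64.0% and T5_5 at 52.8%. Without the pair of Psmb8 and Psmb5, the share of the median cell was 3.55%. T3_12 held the highest value of both Psmb8 and Psmb9, at 2176 and 994 TPM, and also the highest value of Psmb5, at 630 TPM. It had Psmb10 at 3 TPM only. The lowest share was that of T2_12, at 0.668%. T4_3, the cell with the fewest genes detected, had Psmb8 and Psmb9 listed at 0 and a share of 1.6%, while Psme1 had its highest value there, 2455 TPM.

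The immunoproteasome form and its constitutive partner showed little relation over cells. Spearman rho over the 56 cells was 0.116 for Psmb8 with Psmb5, -0.0895 for Psmb9 with Psmb6 and 0.0339 for Psmb10 with Psmb7. The genes compared share the library of each cell and its fixed TPM total, so these correlations are a description and carry no p-value. By set, the median share of Psmb8 was 31.3% in T4, 56.5% in T2, 68.8% in T1, 73.9% in T5 and 76.8% in T3. Set T4 was thus lowest, with Psmb8 at a median of 87.5 TPM, against 218 to 531 TPM in the other sets, and Psmb5 at 197 TPM, against 80 to 147 TPM. What the sets stand for is not given, and the part of the set in the share was not tested.

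**Figure D2:**
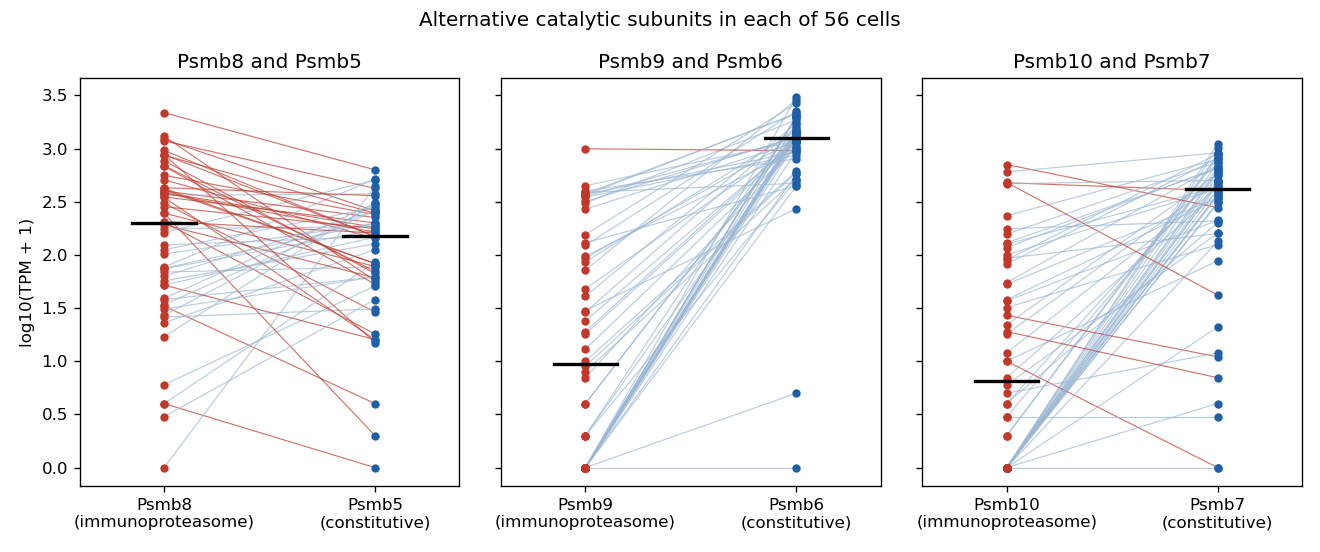
Levels of the immunoproteasome catalytic subunits (left in each panel) and of the constitutive subunits whose place they take (right) in 56 cells, as log10(TPM + 1), with lines joining the values of a cell, red where the immunoproteasome form is higher, and bars at the median cell. Red lines prevail for Psmb8 and Psmb5 (31 cells) and are few for Psmb10 and Psmb7 (6 cells) and Psmb9 and Psmb6 (1 cell). The levels of Psmb5 and Psmb6 are uncertain because of near-identical copies, and that of Psmb7 because of a named pseudogene and an overlap with Nek6.

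The promoters of Psmb8 with Psmb5 and of Psmb9 with Psmb6 are shown because the forms are known to be driven by different factors. These are interferon signalling for the immunoproteasome, and general promoter elements with the stress factor Nfe2l1 for the constitutive genes. RefSeq promoters (GRCm38.p6, 250 bases before and 50 after the start, 5′ to 3′ on the strand of the gene) were at hand for 40 of the 47 genes. Psmb7 was not among them, so its pair with Psmb10 is not shown. Psmb8 lies at chr17:34197945-34198244 on the + strand and Psmb9 close to it at chr17:34187281-34187580 on the - strand. Psmb5 lies at chr14:54617946-54618245 on the - strand and Psmb6 at chr11:70525107-70525406 on the + strand. Capitals mark a GAS element (TTCNNNGAA) in Psmb8, an antioxidant response core (TGACNNNGC) in Psmb5 and Psmb6 and a CCAAT box, read on the opposite strand, in Psmb9.
Psmb8: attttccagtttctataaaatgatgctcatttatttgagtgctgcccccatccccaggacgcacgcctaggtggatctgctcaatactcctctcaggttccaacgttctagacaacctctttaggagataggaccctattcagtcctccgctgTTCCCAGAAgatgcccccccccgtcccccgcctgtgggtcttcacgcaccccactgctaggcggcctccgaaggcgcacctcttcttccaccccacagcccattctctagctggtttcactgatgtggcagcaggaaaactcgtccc
Psmb5: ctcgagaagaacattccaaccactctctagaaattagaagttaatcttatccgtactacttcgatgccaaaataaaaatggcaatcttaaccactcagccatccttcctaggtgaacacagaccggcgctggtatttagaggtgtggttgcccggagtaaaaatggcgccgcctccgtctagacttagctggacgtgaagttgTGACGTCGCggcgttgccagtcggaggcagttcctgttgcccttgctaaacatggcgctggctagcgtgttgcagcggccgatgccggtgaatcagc
Psmb9: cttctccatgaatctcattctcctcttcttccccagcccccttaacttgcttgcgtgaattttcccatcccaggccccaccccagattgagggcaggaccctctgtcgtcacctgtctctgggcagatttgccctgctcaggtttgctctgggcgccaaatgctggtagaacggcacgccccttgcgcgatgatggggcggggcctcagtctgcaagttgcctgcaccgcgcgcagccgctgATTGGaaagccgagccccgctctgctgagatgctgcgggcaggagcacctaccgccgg
Psmb6: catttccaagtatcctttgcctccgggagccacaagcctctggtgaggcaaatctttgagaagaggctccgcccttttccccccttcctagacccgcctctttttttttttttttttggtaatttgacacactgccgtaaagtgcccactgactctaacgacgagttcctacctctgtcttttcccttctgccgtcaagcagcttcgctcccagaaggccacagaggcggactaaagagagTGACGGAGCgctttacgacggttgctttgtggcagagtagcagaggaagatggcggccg

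The GAS match of Psmb8 begins at position -97 from the start, the CCAAT box of Psmb9 at -8, and the antioxidant response core at -47 in Psmb5 and -9 in Psmb6. All 6 motifs were searched on both strands, and none of the marked matches overlaps a match to another motif. Over the 32851 promoters of the table, a GAS match was found in 8.30%, an antioxidant response core in 12.4% and CCAAT in 37.4%. The antioxidant response core was found in 0 of 6 immunoproteasome promoters and in 4 of 27 promoters of core and 19S genes (14.8%), near its share of all promoters. CCAAT was in 1 of 6 and in 10 of 27 (37%), again near its share of all promoters. GAS was in 1 of 6 and 1 of 27, and the core of the interferon-stimulated response element (GAAA, 2 free bases and GAAA) in 1 of 6 (Psme1) and 2 of 27, beside 3.44% of all promoters. An NF-kB site was in 0 of 6 and 5 of 27 (18.5%), beside 8.46%. An ETS site (CCGGAAG) was in 0 of 6 immunoproteasome promoters and in 11 of 27 constitutive promoters (40.7%), beside 8.86% of all promoters. Of these 11, only that of Psma6 was in a core gene, and the others were in 19S genes. Psmc2 was counted with 2 promoters, which had matches at -84 and -24. All motif counts here are matches of letters and not of sites shown to be bound.

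Cell-to-cell variation was measured as log2 CV2 (CV being the SD of TPM divided by its mean) minus its running median over genes of similar mean level. This excess is 0 for a gene as variable as others of its level, and values above 1 or below -1 were called. No proteasome gene was called above 1 (0 of 47), beside 13.1% of the 7871 genes measured. There were 5 of 47 below -1, beside 15.1% of all genes. The median excess of the proteasome genes was -0.10, with 25 of 47 below 0, beside 49.6% of all genes. By median excess the proteasome genes were therefore about as variable as other genes of their level. The 13.1% is over genes of all levels. A lack of genes above 1 was shared by oxidative phosphorylation subunits (0 of 69) and the chaperonin TRiC (0 of 8). Of ribosomal protein genes, 1 of 74 was above 1. Psmb8 and Psma3 were each above 1 in another setting, given below. By class the median excess was 0.31 for the immunoproteasome, -0.42 for the core, -0.06 for the 19S particle, 0.30 for the assembly factors and -0.67 for the other activators and inhibitor. In the core 10 of 14 genes were below 0, and in the 19S particle 9 of 17. In the immunoproteasome 2 of 5 were below 0.

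The 5 genes called below -1 were the alpha ring genes Psma5 (-2.03) and Psma3 (-1.77), the activator Psme4 (-1.53), the chaperone Psmd9 (-1.40) and the catalytic Psmb5 (-1.25). Psma5 had 3, 170 and 520 TPM in the lowest, median and highest cell and Psma3 had 10, 251.5 and 859 TPM, both detected in all 56 cells. Psme4 had 0, 1.5 and 162 TPM (33 cells) and Psmd9 had 0, 7 and 174 TPM (42 cells). Psma5 and Psmb5 have near-identical copies elsewhere in the annotation. Psma3 kept 498 TPM in T3_2, where most other core genes were listed at 0. When each cell was rescaled by a size factor from genes detected in every cell (0.137 for T3_2, 0.715 to 1.24 for the other cells), the excess of Psma3 turned to 1.16. The other members of each class lay within 1 of the running median. The largest excess in the core was 0.56 (Psma6, with 23, 1158.5 and 4061 TPM in the lowest, median and highest cell). In the 19S particle, values lay between -0.77 (Psmd7) and 0.61 (Psmc5), in the assembly factors up to 0.62 (Psmd10), and in the other activators up to -0.39 (Psme3). Psmc3ip stood at 0.50. The levels of Psmd7 were 0, 325.5 and 974 TPM (55 cells), those of Psmc5 0, 504 and 2569 TPM (52 cells) and those of Psmd10 0, 30 and 1187 TPM (40 cells).

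The immunoproteasome divided again between the catalytic genes and the cap. Psmb8 had the largest excess of all 47 genes (0.86), followed within the class by Psmb10 (0.58) and Psmb9 (0.31). Psme1 (-0.33) and Psme2 (-0.84) were below 0. Psmb8 had an excess of 1.03 without set T5, and the median of the class was 0.05 without set T3. The highest cell held 11.3% of all Psmb8 TPM, 16.8% of Psmb9 and 16.2% of Psmb10, but 6.52% of Psme1 and 4.15% of Psme2. Measured as the SD of log2(TPM + 1), the order of the classes was not kept: the median excess on that scale was -0.00066 for the immunoproteasome and 0.08 for the core.

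**Figure D3:**
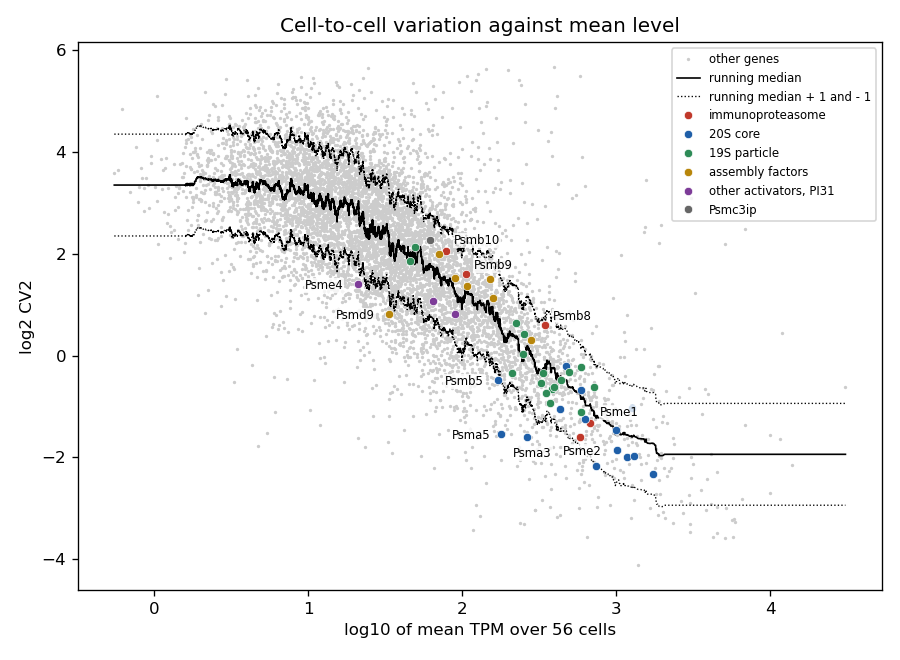
Log2 CV2 against log10 of mean TPM for 7871 genes (those with 10 or more cells detected), with the running median (solid line) and 1 above and below it (dotted lines); proteasome genes are coloured by class and those named in the text are labelled. No proteasome gene lies above the upper dotted line, Psmb8 is the closest at 0.86, and Psma5, Psma3, Psme4, Psmd9 and Psmb5 lie below the lower line.

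Co-variation was then described as Spearman rho over the 56 cells for each of the 1081 pairs of proteasome genes. Pairs were loosely related. The mean rho was 0.0973, against 0.0434 for all pairs of genes, and 79 of the 1081 pairs reached 0.3 (7.31%), beside 3.11% of all pairs of genes. By class, the mean was 0.163 within the immunoproteasome (10 pairs), 0.103 within the core (91 pairs) and 0.101 within the 19S particle (136 pairs). Between core and 19S it was 0.0990. Pairs of the immunoproteasome averaged 0.08 with the core, 0.102 with the 19S particle and 0.0354 with the assembly factors. Pairs drawn from all genes at the same mean levels as these classes averaged between 0.0406 and 0.0459 for all these classes. The mean rho within and between the core and the 19S particle was thus close. The share of pairs at 0.3 or more was not: it was 3.30% within the core, 8.40% between core and 19S and 8.09% within the 19S particle.

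This relation moved with the number of genes detected and with single cells. Held at equal numbers of genes detected (partial rho), the mean was 0.0531 for proteasome pairs, against 0.00935 for all pairs of genes. Without T3_2 and T3_5 it was 0.0628, against 0.0299. The share of proteasome pairs at 0.3 or more was 4.44% (1.89% of all pairs) in the first case and 5.37% (2.74%) in the second. With ranks centred within sets it was 8.60%, against 3.68% of all pairs. Without set T3, which holds both of these cells, the mean was 0.0228 within the core, 0.0561 between core and 19S, 0.0713 within the 19S particle and 0.0469 between immunoproteasome and core. As Pearson's r of log2(TPM + 1) the mean was 0.305 within the core, 0.222 between core and 19S and 0.198 within the 19S particle. Without T3_2 and T3_5 these were 0.0948, 0.112 and 0.135, so on that scale the higher value within the core rested on these cells.

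**Figure D4:**
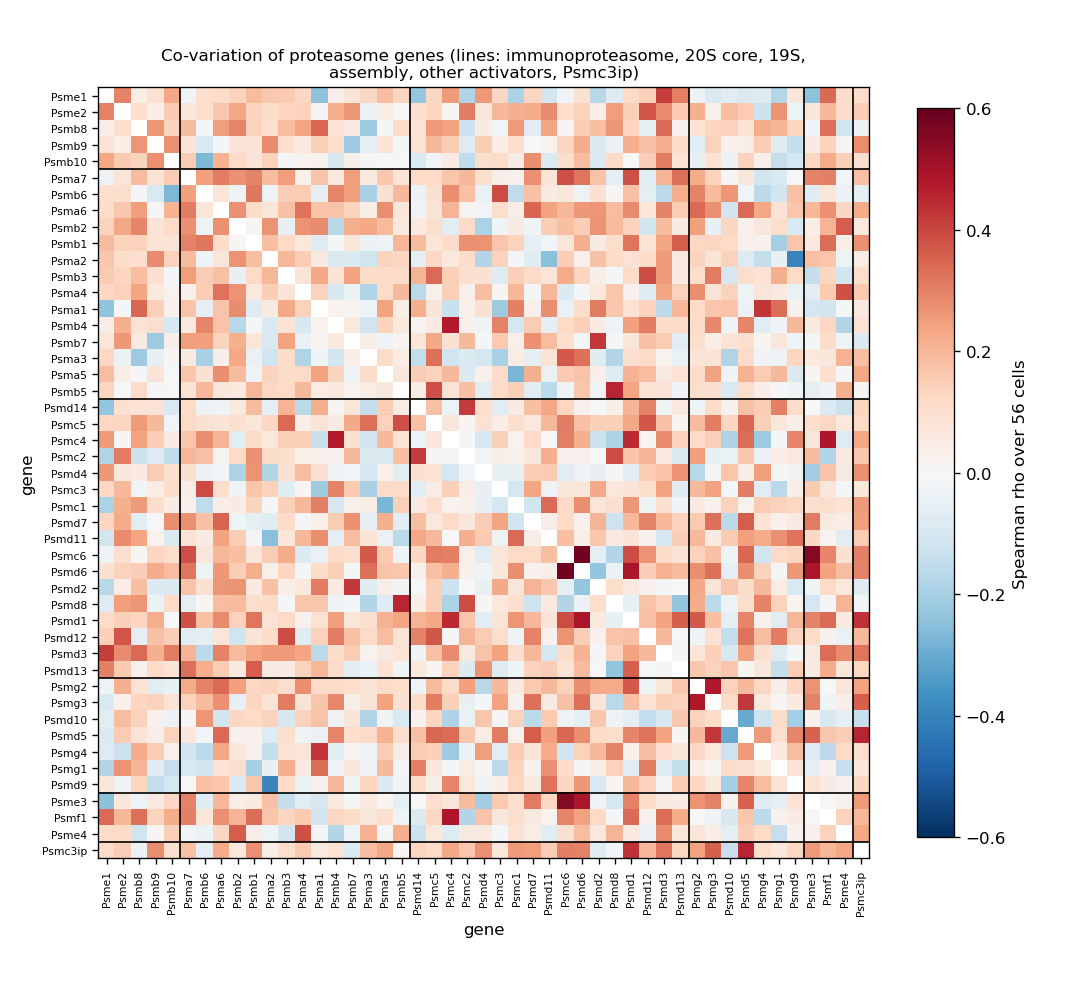
Spearman rho over 56 cells for each pair of the 47 proteasome genes, with genes ordered by class and by mean TPM and black lines between classes. Most values are weakly positive, and the darkest squares join Psmc6, Psmd6 and Psme3 (0.491 to 0.579).

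A few pairs stood above the rest. The highest was the ATPase Psmc6 with the lid gene Psmd6 (rho 0.579), and both were also high with the activator Psme3 (0.552 for Psmc6 and 0.491 for Psmd6). Psmd6 had a rho of 0.489 with Psmd1. The next pairs were Psmc4 with Psmf1 (0.485), the chaperones Psmg2 and Psmg3 (0.481), Psmb4 with Psmc4 (0.477) and Psmc3ip with Psmd5 (0.459). Psmc6 with Psmd6 was 0.518 at equal numbers of genes detected and 0.576 without T3_2 and T3_5. Psmc3ip with Psmd5 dropped to 0.177 at equal numbers of genes detected. The lowest pair was Psma2 with Psmd9 (-0.394), and the chaperones Psmd5 and Psmd10 followed (-0.300).

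Promoters of the highest pair, Psmc6 and Psmd6, are shown with the ETS site in capitals, which both hold (at -100 and -45). In Psmc6 the first run of capitals is an antioxidant response core on the opposite strand, at -227. Psmc6 lies at chr14:45329574-45329873 on the + strand and Psmd6 at chr14:14120896-14121195 on the - strand, both in GRCm38.p6 from RefSeq.
Psmc6: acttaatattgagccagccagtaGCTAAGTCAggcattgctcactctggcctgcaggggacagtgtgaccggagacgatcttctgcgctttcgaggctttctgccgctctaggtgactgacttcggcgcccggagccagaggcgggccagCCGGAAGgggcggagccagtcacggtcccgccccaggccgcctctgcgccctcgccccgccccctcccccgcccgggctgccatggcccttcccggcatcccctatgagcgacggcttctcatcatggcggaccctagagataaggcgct
Psmd6: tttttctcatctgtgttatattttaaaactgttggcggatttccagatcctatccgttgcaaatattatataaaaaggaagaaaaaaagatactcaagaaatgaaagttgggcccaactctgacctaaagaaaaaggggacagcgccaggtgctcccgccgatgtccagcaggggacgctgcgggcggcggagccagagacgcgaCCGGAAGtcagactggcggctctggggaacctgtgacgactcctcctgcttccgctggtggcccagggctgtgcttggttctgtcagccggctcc

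Within the immunoproteasome, the pair with the highest rho was the cap, Psme1 with Psme2 (0.299), whose genes lie close to each other on chromosome 14. Psmb9 and Psmb10 followed (0.273), then Psmb8 and Psmb9 (0.265), which lie close to each other on chromosome 17. Without T3_2 and T3_5 the order of the first 2 pairs turned, with 0.272 for Psmb9 and Psmb10 and 0.257 for the cap. With ranks centred within sets it turned as well, at 0.340 and 0.304, and both pairs then reached 0.3. At equal numbers of genes detected the cap was at 0.301 and Psmb9 with Psmb10 at 0.261. Psmb8 with Psmb10 was at 0.134. With uncentred ranks over all cells none of the 10 pairs reached 0.3, and all were above 0, with the lowest at 0.0408. Psmb10 with the constitutive Psmb6 was at -0.267.

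To place the genes against the complex as a whole, a constitutive score was formed for each cell as the mean of z-scored log2(TPM + 1) over the 31 core and 19S genes. An immunoproteasome score was formed likewise from its 5 genes. Each member was compared with the constitutive score without itself. A rho of 0.3 or more was reached by 16 of the 47 genes, beside 15% of the 4313 genes detected in at least 28 cells. The median rho was 0.212 for proteasome genes and 0.155 for all genes. At equal numbers of genes detected 6 of the 47 reached 0.3, Psma6, Psma7, Psmd1, Psmd6, Psme2 and Psmf1, beside 4.29% of the 4313 genes. Psmd1, the large scaffold of the 19S base, had the highest rho (0.559), followed by Psma6 (0.533), Psmc3ip (0.504), Psma7 (0.502), Psmd5 (0.50) and Psmd6 (0.488). At equal numbers of genes detected, Psmd1 stayed at 0.510, Psma7 at 0.434, Psmd6 at 0.390 and Psma6 at 0.385, while Psmd5 stood at 0.224 and Psmc3ip at 0.116. Psmd4 (-0.0438) and Psmd10 (-0.0745) had no positive relation. The immunoproteasome genes had 0.351 for Psme2, 0.288 for Psmb8, 0.205 for Psmb9, 0.200 for Psmb10 and 0.104 for Psme1.

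The immunoproteasome and constitutive scores had a rho of 0.374 over cells, and 0.344 at equal numbers of genes detected. They differed in their relation to the number of genes detected in a cell, which was 0.186 for the immunoproteasome score and 0.678 for the constitutive score. Without T3_2 and T3_5 these were 0.105 and 0.642. By set, the median immunoproteasome score lay between -0.19 (T2) and 0.30 (T5), and the median constitutive score between 0.04 (T5) and 0.19 (T3).

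**Figure D5:**
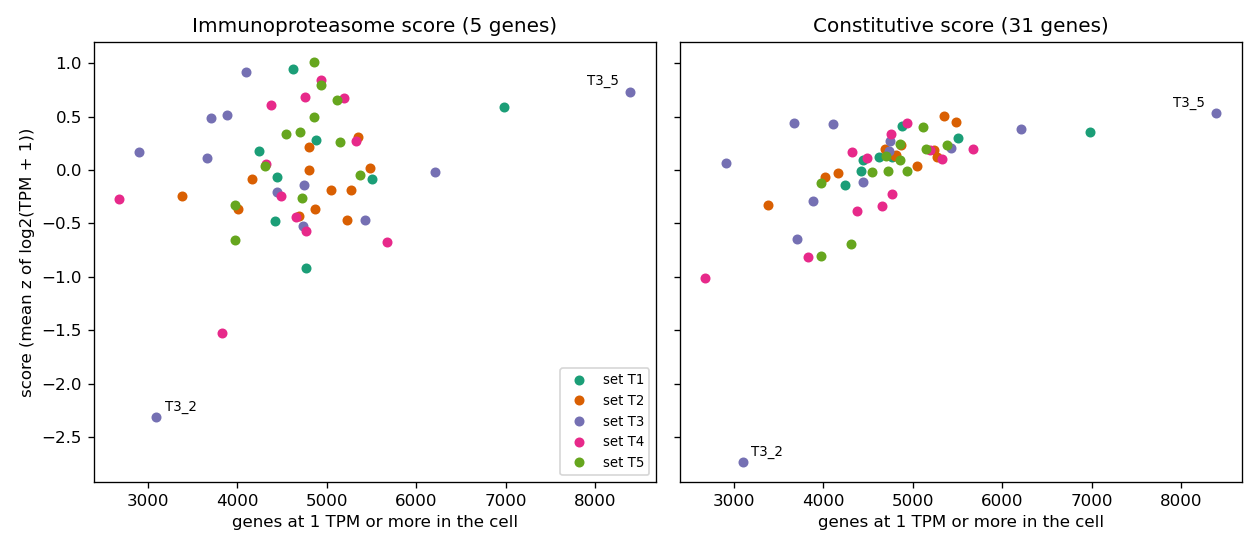
Immunoproteasome score (left, 5 genes) and constitutive score (right, 31 genes) of each of 56 cells, as mean z of log2(TPM + 1), against the number of genes at 1 TPM or more, coloured by set. The constitutive score is higher in cells with more genes detected (rho 0.678) and the immunoproteasome score much less so (rho 0.186), and T3_2 is the lowest cell on both.

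Of the genes outside the family, the 10 with the highest rho with the immunoproteasome score were Fam158a (0.564), Cd48 (0.548), Igtp (0.522), Lsp1 (0.519), Fli1 (0.514), Commd1 (0.498), Dtx3l (0.492), Lsm2 (0.488), 1110008F13Rik (0.477) and Ly6e (0.472). A rho of 0.3 or more with this score was reached by 5.4% of the 4313 genes. Fam158a, now named Emc9, overlaps Psme1 on the opposite strand. It averaged 10.4 TPM, was detected in 55 cells with an excess of -4.19, and had a rho of 0.758 with Psme1. Whether the counting used strand is not stated, so reads of Fam158a and Psme1 cannot be told apart. The same holds for AY074887, which overlaps Psma4 (12 TPM, 54 cells, rho 0.578), and for Mlx with Psmc3ip (rho 0.570). It also holds for Nek6 with the catalytic Psmb7 (134 TPM, 47 cells, rho 0.159). Overlapping genes were also found for Psma2, Psmc3, Psmd1, Psmd5, Psmd9, Psmd13 and Psmg3. Tap1, which overlaps Psmb9 and carries peptides to MHC class I, had a rho of 0.124 with it, and their reads cannot be told apart either. The 10 genes with the highest rho with the constitutive score were Rbm34 (0.587), Ctnnb1 (0.559), Bub3 (0.557), Hmgb1 (0.553), Prdx1 (0.538), Ipo11 (0.532), Qrich1 (0.530), Ube2c (0.529), Taf7 (0.528) and Ppat (0.525). At equal numbers of genes detected these lay between 0.275 (Ppat) and 0.491 (Rbm34).

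Genes that work with the proteasome were described from lists of partners, ubiquitin genes, p97 factors and regulators. Of the partners of the proteasome, 12 were detected in at least 10 cells, 0 with excess above 1 and 4 below -1. Beside these counts and those of the lists that follow, 13.1% of all genes measured were above 1 and 15.1% below -1. Shfm1, a small lid subunit with a name outside the family, averaged 1203 TPM, and Pomp, which completes the 20S core, 970 TPM. Over the 11 partners detected in at least 28 cells, rho with the constitutive score was highest for Uchl5 (0.429), a deubiquitinase of the 19S particle. It was lowest for Zfand5 (-0.0663). Of the 5 ubiquitin genes, 0 were above 1 and 2 below -1. Ubb averaged 2022 TPM, and Rps27a had the highest rho with the constitutive score (0.404). Of the p97 and shuttle list 6 were measured, 0 above 1 and 1 below -1, the ATPase Vcp (-1.74), and rho was highest for Faf2 (0.298) and lowest for Vcp (0.0636). Sqstm1 had the highest mean of that list, at 140 TPM. The regulators were low: Nfe2l1, the factor that raises proteasome genes when degradation fails, had 0, 4 and 388 TPM in the lowest, median and highest cell (mean 32.5, 46 cells) and a rho of -0.0341 with the constitutive score. Ddi2, the protease that activates it, was detected in 5 cells. Of this list 6 were measured, 0 called in either direction. Pomp, Nfe2l1 and Ddi2 were singled out after their values were seen. Mafg had the highest mean of that list (48.3 TPM). Over its 3 genes detected in at least 28 cells, rho was highest for Mafg (0.0176) and lowest for Nfe2l2 (-0.0488).

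The 2 scores were also set beside scores of other gene lists. From the ribosomal and oxidative phosphorylation lists, which were gathered by the start of the gene symbol, kinases, binding proteins, pseudogenes, assembly factors and other genes that are not subunits were taken out after the data were seen. The immunoproteasome score had a rho of 0.422 with the interferon response list, 0.408 with class I peptide processing and 0.440 with oxidative phosphorylation. At equal numbers of genes detected these were 0.398, 0.372 and 0.438. The constitutive score had lower values with the first 2 lists, 0.164 with interferon response and 0.225 with class I processing, and 0.0191 and -0.0409 at equal numbers of genes detected. The difference between the scores was not tested. Igtp (0.522) and Irgm1 (0.410), interferon-induced GTPases, had the highest rho with the immunoproteasome score of the interferon list. B2m, the light chain of MHC class I, had the highest of the class I list (0.379). The lowest were Irf1 (0.0802) and Calr (-0.000376). The median rho of single genes was 0.170 in the interferon list, with 2 of 7 at 0.3 or more. In the class I list it was 0.183, with 2 of 8, beside 5.4% of all genes compared with this score. B2m averaged 9886 TPM and was detected in 56 cells. With the constitutive score, rho in the class I list ran from -0.147 (Nlrc5) to 0.290 (Erap1), and in the interferon list from -0.197 (Bst2, which had the highest mean at 231 TPM) to 0.336 (Irgm1). Of the interferon list 11 genes were measured, 3 with excess above 1 and 0 below -1. Of the class I list 9 were measured, 1 above 1 (Tap1, 1.07) and 0 below -1. Over all genes measured, 13.1% were above 1 and 15.1% below -1.

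Beside other large complexes, the constitutive score had a rho of 0.689 with oxidative phosphorylation, 0.409 with cytosolic ribosomal proteins and 0.411 with the chaperonin TRiC. At equal numbers of genes detected, these were 0.418, 0.366 and 0.404. The immunoproteasome score had 0.119 with ribosomal proteins and 0.0521 with TRiC. Single genes varied: Cox6a1 had the highest mean of oxidative phosphorylation (3056 TPM), with rho from -0.360 (Ndufa6) to 0.439 (Ndufb10). Rps14 had the highest mean of the ribosomal list (5920 TPM), with rho from -0.218 (Rpl9) to 0.469 (Rpl34). Cct5 led TRiC (1469 TPM), with rho from 0.0838 (Cct2) to 0.297 (Cct3). With G2 and mitosis genes the constitutive score had 0.418 and, at equal numbers of genes detected, 0.121. Of those 12 genes Top2a had the highest mean (162 TPM). Over the 6 of them detected in at least 28 cells, rho ran from 0.273 (Cdk1) to 0.401 (Cenpe). In variation, the proteasome differed from the ribosome in these values: 5 of 47 proteasome genes were below -1 with a median excess of -0.10, against 59 of 74 ribosomal protein genes with a median of -1.49 (1 was above 1). With the genes taken out counted in, these were 60 of 78 and -1.44. Oxidative phosphorylation had 17 of 69 below -1 with a median of -0.41, and TRiC 0 of 8 with a median of -0.03. Of all genes measured, 15.1% were below -1. Near-identical transcripts were searched for proteasome genes only, and ribosomal means ran from 6.46 TPM (Rpl30) to 5920 TPM (Rps14). The part of reads divided between copies in these differences was not tested.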

How the data were processed

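RNA was sequenced from 56 single Th2 cells. The deposited values are a score: TPM that the authors rounded to whole numbers, as the whole values and the column sums of 999202 to 999914 show. The submitters' processing notes name the build mm9 and FastQC, Bowtie 0.12.2 and Cufflinks; their roles are not given in the sources used here. The sequencing depth behind a cell cannot be read from TPM and is unknown. Intervals on shares of cells cover counting error only. The members, classes and gene lists were chosen with earlier results of these data known.

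Values were used as deposited, without filter or pseudocount, for levels, shares and ranks. Scores used log2(TPM + 1). Variation was computed against a running median over genes nearest in mean, for 7871 genes with 1 TPM or more in 10 cells. Relations to scores used the 4313 genes with that level in 28 cells. Partial rho held the number of genes detected constant. Genes were described in full where they were immunoproteasome or catalytic subunits, or had the highest or lowest mean or excess of their class. Of other genes, the 10 with the highest rho with each score were named, and in each list the highest mean and the highest and lowest rho. The lowest rho of the ubiquitin list is not reported here. Near-identical transcripts (90% identity over 50% of the length) and overlapping genes were searched in a GRCm38 annotation, which gave no coordinates for the measured values. Motifs were counted in RefSeq promoters of GRCm38.p6. Of the symbols in the table, 9357 were current, 1086 older and 122 not matched. Steps ran in Python 3.11.15 with numpy 2.4.6, pandas 2.3.3 and scipy 1.17.1 and were tested on simulated data.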

Additional observations from a re-analysis of the deposited data

How the results depend on the processing

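The levels, detection, variation, co-variation and shares of the classes were recomputed under other settings, which gave 245 alternative values. Of these, 237 stayed within 1 SD over genes, pairs or cells, or within 1.5 times for a count. This SD is wide, so the 237 are no measure of how firm the results are. The mean rho within the core was 0.103 with all cells and 0.0228 without set T3, and counted as within it. The median excess of the immunoproteasome, 0.31 with all cells and 0.05 without set T3, did so too. The other 8 values moved. The median number of cells with an immunoproteasome gene was 36 without genes that have a near-identical transcript, and 55 with all. That setting leaves out Psme1 and Psme2. The median level there, 106 TPM against 344 TPM with all, counted as within the SD. The number of proteasome genes with excess below -1 was 3 without the highest cell of each gene, 3 without genes with a named pseudogene copy and 3 without near-identical transcripts, and 5 with all. The number above 1 was 1 without set T5 (Psmb8) and 1 after rescaling each cell (Psma3), and 0 otherwise. The mean correlation within the core was 0.305 as Pearson's r of log2(TPM + 1), 0.252 of log2(TPM + 10) and 0.103 as Spearman's rho. The settings on near-identical transcripts, the Pearson value without T3_2 and T3_5, and the share without Psmb5 were chosen after seeing the data. No paired analysis was possible because the cells form 1 group. TPM without depth limits what can be said of values at 0.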
